A study of Mus musculus with 6 samples.

Results

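The canonical ligands of the Notch pathway, its receptor Notch1 and its Hes and Hey effectors were followed across 6 single-colour mouse arrays. The 10 genes were Dll1, Dll3, Dll4, Jag1, Jag2, Notch1, Hes1, Hes5, Hes6 and Hey1. They were found by gene name, taking every non-control probe whose printed accession belongs to one of them, which gave 12 probes out of 39409, for 10 of the 20656 genes named on the array. Dll3 and Notch1 had 2 probes each and every other gene had 1. The study set primary mouse embryonic fibroblasts (MEF) beside fibroblasts on the way to neurons induced by Tet3, a dioxygenase that oxidises methylated cytosine, and beside primary neurons. The fibroblasts came from E13.5 embryos of ICR mice, an outbred strain, and the neuron sample carries the same age label. The Tet3 arrays are labelled 1, 3, 5 and 7 days post infection (dpi). Those cells received adenoviral supernatant on 2 successive days with polybrene, and part of their medium was replaced by neuronal medium with 20 µM forskolin, an activator of adenylyl cyclase, on day 3 and day 5 after the second infection. There was 1 array per group and no array of cells given a virus without Tet3, so infection, medium and Tet3 cannot be told apart, and nothing below could be tested between groups. Every comparison with MEF shares the same MEF array.

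Notch receptors are cut when a Delta or Jagged ligand on a neighbouring cell binds them, and the freed intracellular part joins Rbpj in the nucleus to switch on Hes and Hey genes, which code for basic helix-loop-helix repressors. In the embryonic nervous system, cells that begin to become neurons raise Delta ligands under proneural factors such as Neurog2, while Hes1 and Hes5 hold their neighbours in the progenitor state. Dll3 and Hes6 differ from their relatives: Dll3 acts inside the cell that makes it, and Hes6 counters Hes1.

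Promoters are shown for the 3 genes that stood higher from 5 dpi on and belong to the neurogenic side of the pathway (Dll1, Dll3 and Hes6), and for Hes5, a textbook target of Rbpj. RefSeq's promoter table for GRCm38.p6 matched 8 of the 10 genes, with 10 start sites; Hes1 and Hey1 were not matched. Each line holds the 250 bases before a start site, 5′ to 3′ on the gene's strand, at chr17:15376933-15377182 (minus strand) for Dll1, chr7:28301786-28302035 (minus) for Dll3, chr1:91414039-91414288 (minus) for Hes6 and chr4:154960673-154960922 (plus) for Hes5. Capitals mark CAGNTG, the E-box form read by proneural factors, and TGGGAA, the core read by Rbpj, on either strand.
Dll1: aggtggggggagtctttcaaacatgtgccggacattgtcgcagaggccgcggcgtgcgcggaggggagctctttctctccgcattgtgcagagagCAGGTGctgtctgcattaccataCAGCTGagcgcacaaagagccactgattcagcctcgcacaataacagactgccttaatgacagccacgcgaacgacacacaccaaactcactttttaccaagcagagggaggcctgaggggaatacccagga
Dll3: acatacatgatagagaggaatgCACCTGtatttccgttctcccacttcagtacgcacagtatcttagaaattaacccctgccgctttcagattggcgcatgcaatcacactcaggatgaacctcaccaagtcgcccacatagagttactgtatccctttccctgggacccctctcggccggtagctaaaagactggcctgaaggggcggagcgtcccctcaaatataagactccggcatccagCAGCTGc
Hes6: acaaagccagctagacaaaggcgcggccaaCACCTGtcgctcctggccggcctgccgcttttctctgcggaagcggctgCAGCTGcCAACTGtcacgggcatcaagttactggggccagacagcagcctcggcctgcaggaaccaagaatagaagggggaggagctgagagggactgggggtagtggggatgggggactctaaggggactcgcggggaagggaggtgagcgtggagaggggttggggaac
Hes5: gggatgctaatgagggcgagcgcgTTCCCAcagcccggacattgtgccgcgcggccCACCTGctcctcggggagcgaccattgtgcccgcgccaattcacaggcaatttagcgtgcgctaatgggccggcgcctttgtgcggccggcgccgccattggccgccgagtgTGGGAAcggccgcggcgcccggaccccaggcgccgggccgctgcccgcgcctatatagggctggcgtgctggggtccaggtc
The Dll1 window held CAGNTG at 132 to 127 and 155 to 150 bases before the start, and a second Dll1 start site had no match. For Dll1 and for Hes6 the printed window is the one with more CAGNTG matches. The Dll3 window held it at 7 to 2 and 228 to 223 bases, and the Hes6 window at 164 to 159, 171 to 166 and 220 to 215 bases. The Hes5 window held it at 194 to 189 bases and was the only window of the 10 with TGGGAA, at 82 to 77 and 226 to 221 bases. CAGNTG was in 6 of the 10 windows, among them that of Jag1 (82 to 77 bases) and that of a second Hes6 start site (150 to 145 bases). The windows of Dll4, Jag2 and Notch1 held neither motif. It was in 44.8% of all 32851 promoter windows of that length, and TGGGAA was in 21.6% of them. The matches describe letters and do not show binding.

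A level here is the log2 of the background-corrected signal minus the array's 75th percentile, so 0 is a bright signal for its array and most probes lie below it. Between 72.9% and 86.1% of probes were well above background and no spot was saturated. Values along the Tet3 series come in the order 1, 3, 5 and 7 dpi by label. An error is that of the scanner software's model for a difference of 2 arrays, with a median of 0.20 on the log2 scale; it covers the array and not the cultures. A single scan read MEF with 1 dpi and a later scan read the remaining arrays, so scan and time cannot be told apart where 3 dpi or later is set against MEF. The brightest Tet3 probe was 2.56-fold, 3.89-fold and 6.94-fold of MEF at 1, 3 and 5 dpi but 1.23-fold on the array labelled 7 dpi. The probe with the widest change was not well above background there. Because of these probes that array is called the array labelled 7 dpi. The remaining Tet3 probe, well above background on every array, stayed within 2-fold of MEF and did not fall after 5 dpi. It was 0.730-fold, 1.24-fold, 1.28-fold and 1.33-fold of MEF along the Tet3 series, and 1.89-fold in neurons. Why the Tet3 probes differ was not tested. In bulk RNA, fewer cells of a type and less RNA per cell cannot be told apart.

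The 3 genes of the neurogenic side, Dll1, Dll3 and Hes6, were within 2.37-fold of MEF up to 3 dpi by the probes used, and stood 5.65-fold to 14.6-fold above it at 5 dpi. Jag2 was seen above background only from 5 dpi on, at least 18.2-fold above MEF on the array labelled 7 dpi. The effectors Hes1 and Hes5 and the ligand Jag1 stayed within 2-fold of MEF on all 4 Tet3 arrays. The effector Hey1 was 3.21-fold above MEF on the array labelled 7 dpi. At 5 dpi Hey1 was 2.37-fold above it, where median centring gave 0.84 on the log2 scale. Primary neurons shared high Dll1 (16.6-fold of MEF) and Jag2 with the late Tet3 arrays, had Hey1 and Hes5 at their highest, and had Jag1 and Hes1 at their lowest.

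**Figure D1:**
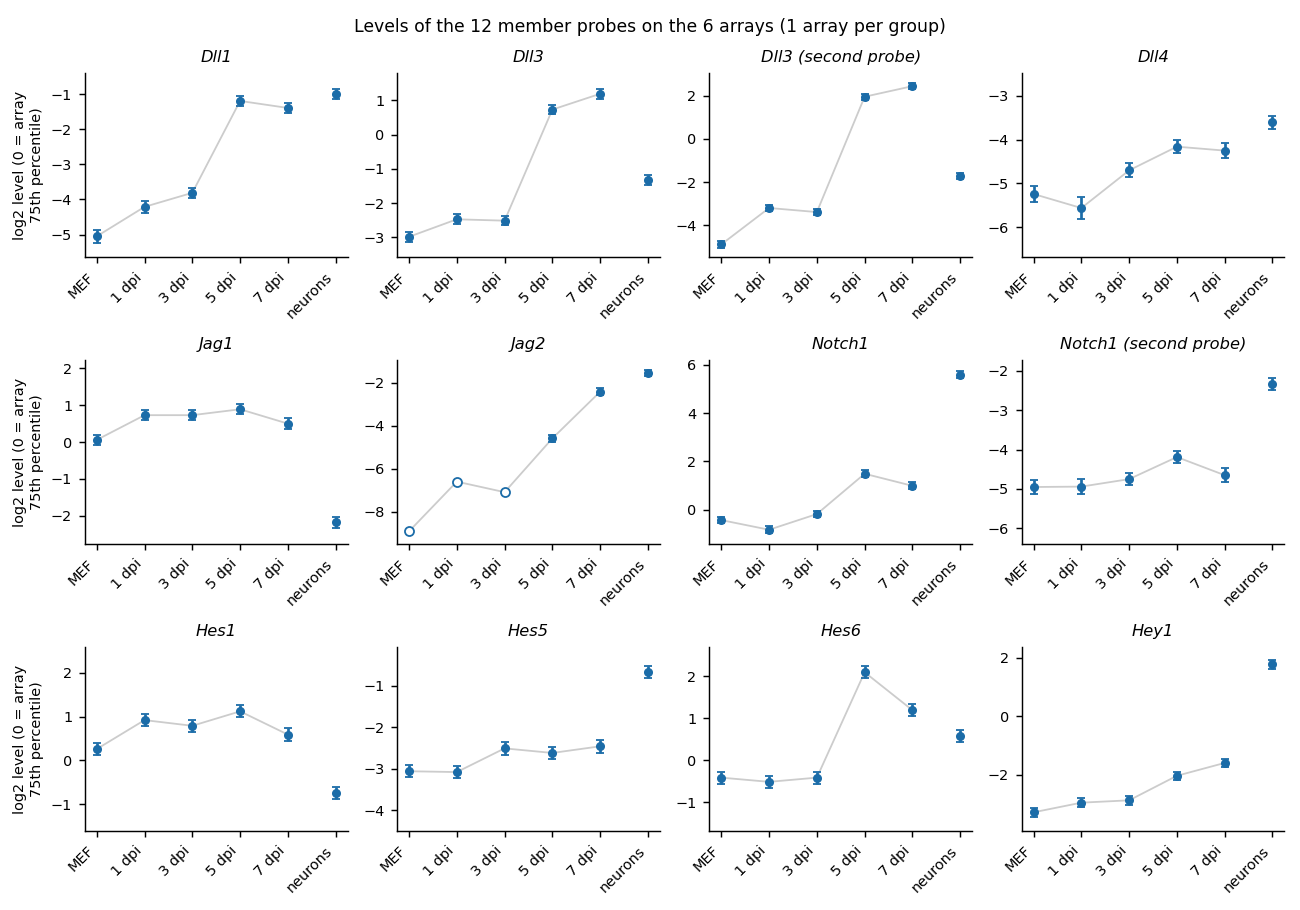
Levels of the 12 probes of the 10 genes on the 6 arrays, 1 point per array, on a log2 scale where 0 is the array's 75th percentile (the y axes differ between panels). Bars are the array error of 1 level by the scanner's model, open circles are probes not well above background, and grey lines join MEF and the Tet3 arrays; Dll1, Dll3 and Hes6 step up between 3 and 5 dpi, and Jag1 and Hes1 are lowest in neurons.

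Among the ligands, Dll1 is the main Delta ligand of neurogenesis. Its level was -5.05 in MEF, -4.21, -3.81, -1.19 and -1.39 along the Tet3 series, and -1.0 in neurons. The 3 later arrays lay together and far above the 3 earlier ones, and among the later ones neighbours in the order differed by less than 1.96 array errors. Dll1 was 14.6-fold above MEF at 5 dpi (3.87 ± 0.23, array error), 12.7-fold on the array labelled 7 dpi and 16.6-fold in neurons. The size depends on the scaling: with normexp these log2 differences were 2.85, 2.68 and 3.00, where the processed signals gave 3.87, 3.67 and 4.06. This probe was printed 10 times per array, with 9 to 10 spots kept and an SD between spots of 0.07 to 0.09. The 2.37-fold difference at 3 dpi (1.25 ± 0.24) went below 2-fold under each of 3 other scalings, at 0.67 with normexp, 0.75 with quantile normalization and 0.95 with median centring.

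Dll3, the ligand that acts inside its own cell, had a level of -2.98 in MEF, -2.47, -2.51, 0.73 and 1.19 along the Tet3 series, and -1.33 in neurons. Unlike Dll1, Dll3 was highest on the 2 late Tet3 arrays and stood lower in neurons. It was 13.1-fold above MEF at 5 dpi (3.71 ± 0.21) and 18.0-fold on the array labelled 7 dpi (4.17 ± 0.21), and 3.15-fold in neurons (1.65 ± 0.21, or 0.85 with median centring). The second Dll3 probe read -4.89, -3.20, -3.39, 1.96, 2.45 and -1.73 on the same arrays in that order. It had the same order of arrays and a wider range, with 116-fold at 5 dpi and 162-fold on the array labelled 7 dpi, so the direction did not depend on the probe but the size did. It also put 1 dpi 3.23-fold and 3 dpi 2.84-fold above MEF, where the probe used gave 1.43-fold and 1.39-fold.

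Dll4, known mainly as the Delta ligand of arteries and sprouting vessels, stayed dim, with levels of -5.24 in MEF, -5.56, -4.70, -4.16 and -4.25 along the Tet3 series, and -3.60 in neurons. Neurons were highest and MEF and 1 dpi lowest, within a total range of under 4-fold. The difference from MEF was 2.11-fold at 5 dpi (1.08 ± 0.24), 1.98-fold on the array labelled 7 dpi (0.99 ± 0.25) and 3.11-fold in neurons (1.64 ± 0.24). At 5 dpi the value was 0.57 with normexp, 0.39 with quantile normalization and 0.67 with median centring, and in neurons quantile normalization gave 0.49, so the 2-fold calls of Dll4 rest on the scaling. The summed linear level of 8 endothelial markers lay between 2.26 and 3.31 on the 6 arrays, and Tie1, an endothelial receptor, was not well above background on any; their part in the Dll4 values was not tested.

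Jag1, a Jagged ligand made by many mesenchymal cells, was bright in fibroblasts and dim in neurons. Its level was 0.06 in MEF, 0.73, 0.73, 0.89 and 0.50 along the Tet3 series, and -2.17 in neurons. The Tet3 arrays all lay slightly above MEF, by 1.35-fold to 1.77-fold, and median centring put the array labelled 7 dpi at -0.01 against MEF. In neurons Jag1 was 4.70-fold lower than in MEF (-2.23 ± 0.20) and, compared with the array labelled 7 dpi, 6.35-fold lower. The 10 fibroblast markers were also all at least 2-fold lower in neurons than in MEF, against 16.1% of all genes, with a summed level of 33.2 against 526. On the Tet3 arrays their sum lay between 438 and 649. At 3 dpi 3 of the 10 were at least 2-fold lower than in MEF and 1 higher. The part of these markers in the Jag1 difference was not tested.

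Jag2, the second Jagged ligand, was not well above background in MEF, at 1 dpi or at 3 dpi, with measured levels of -8.91, -6.60 and -7.09. Its level was then -4.59 at 5 dpi, -2.42 where the label says 7 dpi and -1.55 in neurons. Each of these 3 arrays differed from its neighbour in the order by more than 1.96 array errors, and the low arrays have no order among themselves. Set against the lowest signal that counted as well above background in MEF, Jag2 at 5 dpi was at least 4.02-fold higher. The array labelled 7 dpi was at least 18.2-fold higher, and neurons at least 33.3-fold higher. These bounds hold for the scaling used; on the log2 scale they are 2.01, 4.18 and 5.06, with normexp they were 1.28, 2.81 and 3.57, and with quantile normalization the bound at 5 dpi was 1.18. Between 5 dpi and the array labelled 7 dpi it differed by 4.51-fold (2.17 ± 0.22), and it was the only one of the 10 genes past 2-fold in that step.

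Notch1, the receptor, was read by 2 probes that disagree in size. The brighter read -0.43 in MEF, -0.83, -0.18, 1.49 and 0.99 along the Tet3 series, and 5.60 in neurons. The dimmer read -4.95, -4.94, -4.75, -4.19, -4.65 and -2.33 on the same arrays. Both were highest in neurons, next highest at 5 dpi and lower on the remaining arrays, but the brighter gave 65.3-fold for neurons over MEF (6.03 ± 0.20) and the dimmer 6.16-fold (2.62 ± 0.23). At 5 dpi the brighter was 3.76-fold and the dimmer 1.69-fold above MEF, and on the array labelled 7 dpi they were 2.67-fold and 1.23-fold above it. With median centring the brighter probe went to 0.98 on the array labelled 7 dpi, below 2-fold.

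The brighter Notch1 probe was examined further after its values had been seen. In neurons only 175 of the 39409 probes were brighter. Its profile over the 6 arrays was matched with a Pearson r of 0.999 or more by 10 other probes out of 6485 searched, whose differences between neurons and MEF ran from 4.89 to 7.13. Of these, 4 had a gene name: Sdad1, Cmya5, Trpm1 and 1700029H14Rik. Other probes of these 4 genes did not share the profile, with r from -0.8416 to 0.6820, while the dimmer Notch1 probe had an r of 0.9862 with the brighter. The other Sdad1 probe had a difference of -0.87 between neurons and MEF where the matching one had 5.38, the other Cmya5 probe 2.02 where the matching one had 6.07, and the other Trpm1 probes 2.20 and 1.99 where the matching one had 5.04. Since probes of other genes gave the same profile, the Notch1 level is uncertain, and counts below use the brighter probe unless the dimmer is named.

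**Figure D2:**
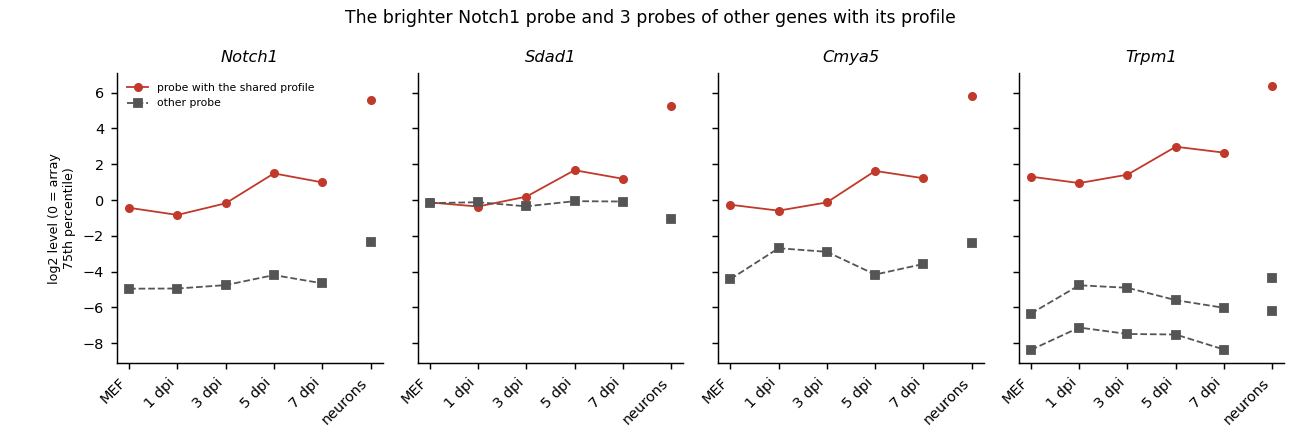
Log2 levels (0 is the array's 75th percentile) of the brighter Notch1 probe and of the Sdad1, Cmya5 and Trpm1 probes with its profile (red circles), with the other probes of the same genes (grey squares), on the 6 arrays, 1 point per array. The red profiles have the same shape in all 4 panels. The grey Notch1 probe has a like shape (r of 0.9862 with the red one) but a smaller difference between neurons and MEF, 2.62 against 6.03. The other grey probes have r from -0.8416 to 0.6820 with the brighter Notch1 probe.

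Of the effectors, Hes1, the repressor that oscillates in progenitors and is also made by fibroblasts, had levels of 0.26 in MEF, 0.92, 0.79, 1.12 and 0.59 along the Tet3 series, and -0.75 in neurons. The 4 Tet3 arrays lay at or slightly above MEF, between 1.26-fold and 1.82-fold, and no neighbours among these 5 arrays differed by more than 1.96 array errors, while the ends of that order, 5 dpi and MEF, were 0.86 ± 0.20 apart. With median centring the value on the array labelled 7 dpi was -0.11. Only neurons stood apart, 2.01-fold below MEF (-1.01 ± 0.20), just past the 2-fold line.

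Hes5, the repressor most used as a readout of Notch signalling in neural progenitors, had levels of -3.06 in MEF, -3.08, -2.51, -2.62 and -2.46 along the Tet3 series, and -0.67 in neurons. It was high in neurons only, 5.23-fold above MEF (2.39 ± 0.21). The Tet3 arrays reached at most 1.51-fold of MEF. The neuron array also held markers of progenitors and glia. There, 7 of 8 radial glia and progenitor markers and 5 of 5 astrocyte markers were at least 2-fold higher than in MEF, against 30.3% of all genes. Their summed levels were 71.1 against 7.42 and 75.9 against 1.46. The list of 5 ciliated-cell markers, which holds Foxj1 and Ttr, was higher there for 5 of 5, against the same 30.3%. Its sums were 37.0 in neurons, 0.0487 in MEF and 0.0538 to 0.0864 on the Tet3 arrays. On the Tet3 arrays the progenitor and astrocyte sums ran from 7.64 to 13.7 and from 1.71 to 2.15, with the astrocyte gene Mlc1 not well above background on any of them. The part of these cells in the Hes5 and Hey1 levels of neurons was not tested.

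Hes6, which favours neuronal differentiation, had levels of -0.41 in MEF, -0.51, -0.41, 2.09 and 1.19 along the Tet3 series, and 0.58 in neurons. The first 3 arrays were alike within their errors and 5 dpi was the peak, with each later array below it by more than 1.96 array errors. Hes6 was 5.65-fold above MEF at 5 dpi (2.50 ± 0.20), 3.04-fold on the array labelled 7 dpi (1.60 ± 0.20) and 1.98-fold in neurons (0.99 ± 0.20). Between 5 dpi and the array labelled 7 dpi it was lower by 1.86-fold.

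Hey1, a hairy-related repressor of vessels and neural progenitors, had levels of -3.29 in MEF, -2.96, -2.88, -2.04 and -1.60 along the Tet3 series, and 1.77 in neurons. Its order followed the labelled times, but the steps among MEF, 1 dpi and 3 dpi were within 1.96 array errors. Hey1 was 2.37-fold above MEF at 5 dpi (1.25 ± 0.21), 3.21-fold on the array labelled 7 dpi (1.68 ± 0.21) and 33.2-fold in neurons (5.06 ± 0.21). The 5 dpi value was 0.90 with quantile normalization and 0.84 with median centring, below 2-fold.

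The question of the time course was when the pathway's genes left the fibroblast state. At 1 dpi, 0 of the 9 genes with a value were 2-fold away from MEF (Jag2 had none up to 3 dpi), where 5.37% of all genes were higher and 6.03% lower. At 3 dpi, 1 of 9 was higher, Dll1, and 0 lower, against 16.3% and 9.83% of all genes. At 5 dpi, 7 of 10 were higher and 0 lower, against 17.9% and 8.28%, and with the dimmer Notch1 probe 6 were higher. On the array labelled 7 dpi, 6 of 10 were higher and 0 lower, against 17.0% and 6.84%, and 5 with the dimmer Notch1 probe; Dll4 missed the line there at 1.98-fold. In neurons, 7 were higher and 2 lower (Jag1 and Hes1) with either Notch1 probe, against 30.3% and 16.1%, with Hes6 just inside the line at 1.98-fold.

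The median difference of the 10 genes from MEF was 0.33, 0.53, 1.58 and 1.51 along the Tet3 series and 2.02 in neurons; with the dimmer Notch1 probe it was 1.16 at 5 dpi and 1.29 on the array labelled 7 dpi, and the same elsewhere. Over all genes it was 0.07, 0.20, 0.20, 0.16 and 0.26. Dim genes were called higher more often than bright ones: with all genes cut by mean level into 4 classes of equal size, 33.6% of those with a value in the dimmest class, 29.9% in the next, 9.88% in the next and 5.40% in the brightest were higher at 5 dpi. Jag2 lies in the dimmest class, Dll1, Dll4, Hes5 and Hey1 in the next, Dll3, Jag1, Hes1 and Hes6 in the next and Notch1, by its brighter probe, in the brightest. The balance of directions over all genes depends on the scaling. At 5 dpi 68.4% of the called genes were higher, against 58.3% with normexp, 46.8% with quantile normalization and 39.9% with median centring. In the same order the shares were 62.3%, 45.9%, 43.0% and 40.6% at 3 dpi, 71.3%, 60.2%, 49.1% and 41.9% on the array labelled 7 dpi and 65.3%, 58.4%, 47.3% and 30.1% in neurons. Median centring moved the median of all genes from 0.20 to -0.20 at 5 dpi and from 0.26 to -0.59 in neurons. For a gene measured on both arrays, median centring lowered the difference from MEF by 0.40 at 5 dpi, by 0.44 on the array labelled 7 dpi and by 0.80 in neurons. Dll1, Dll3, Jag2, Hes6 and Notch1 by its brighter probe were still past 2-fold at 5 dpi with quantile normalization and with median centring.

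**Figure D3:**
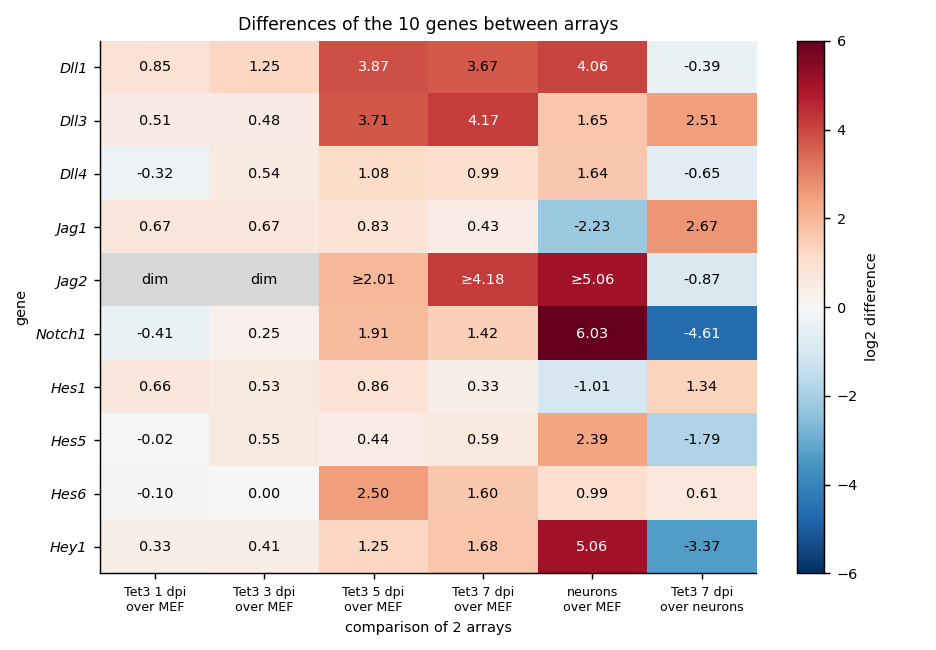
Log2 differences of the 10 genes (rows) in 6 comparisons of 2 arrays (columns), coloured from blue (lower in the array named before "over") to red (higher). The sign ≥ marks a bound where 1 of the arrays was not well above background and "dim" marks pairs where neither was; the 5 dpi and 7 dpi columns against MEF hold no negative value, and the neuron column has Jag1 (-2.23) and Hes1 (-1.01) below 0.

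Between successive Tet3 arrays, most of the 2-fold differences lay in a single step. From 1 to 3 dpi, 0 of 9 genes passed 2-fold, against 7.84% of all genes higher and 5.12% lower. From 3 to 5 dpi, 2 arrays of the same scan, 5 of 10 were higher and 0 lower, or 4 higher with the dimmer Notch1 probe, against 8.09% and 4.60%. Those were Dll3 at 9.40-fold (3.23 ± 0.20), Dll1 at 6.16-fold (2.62 ± 0.21), Hes6 at 5.67-fold (2.50 ± 0.20), Jag2 at least at 4.78-fold and Notch1 at 3.17-fold by its brighter probe, or 1.47-fold by the dimmer. Neuronal medium with forskolin was first given on day 3 after the second infection, so medium and time cannot be told apart in this step. From 5 dpi to the array labelled 7 dpi, 1 of 10 passed 2-fold, Jag2, which was higher, against 10.7% of all genes past 2-fold in either direction.

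The array labelled 7 dpi and neurons, read in the same scan, were compared to ask how near the induced cells came to primary neurons. Dll1, Dll4, Jag2 and Hes6 were within 2-fold of each other, with differences of -0.39, -0.65, -0.87 and 0.61. Jag1 (6.35-fold), Dll3 (5.72-fold) and Hes1 (2.53-fold) were higher on the array labelled 7 dpi. Notch1 (24.5-fold by the brighter probe and 5.00-fold by the dimmer), Hey1 (10.3-fold) and Hes5 (3.47-fold) were lower there. That makes 3 of 10 higher and 3 lower, against 13.9% and 19.6% of all genes.

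The rest of the pathway was read from a list of 86 genes by role, of which 83 were matched and used here. At 5 dpi 14 of the 80 with a value were at least 2-fold higher than in MEF and 7 lower, against 17.9% and 8.28% of all genes. On the array labelled 7 dpi 16 of 79 were higher and 5 lower, against 17.0% and 6.84%. In neurons 24 of 81 were higher and 15 lower, against 30.3% and 16.1%. The list's medians were 0.15, 0.13 and 0.22, close to the 0.20, 0.16 and 0.26 of all genes. At 1 dpi 1 of 76 was higher and 3 lower, against 5.37% and 6.03% of all genes. At 3 dpi 6 of 77 were higher and 11 lower, against 16.3% and 9.83%. The balance turned with the scaling: with median centring 11 were higher and 14 lower at 5 dpi, 11 and 9 on the array labelled 7 dpi, and 16 and 33 in neurons. Over all genes it turned too. Median centring gave 1765 higher and 2654 lower of 17987 at 5 dpi. It gave 1552 and 2151 of 17630 on the array labelled 7 dpi, and 2953 and 6845 of 18272 in neurons. At 3 dpi 1 pathway gene was higher with normexp or quantile normalization, against 1270 of 18101 and 1554 of 17482 genes. The percentages of all genes given here also apply to the counts by role below with the scaling used. Counts by role with median centring go with the all-gene counts of median centring.

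Among the other receptors, Notch3 was 2.24-fold above MEF at 1 dpi and Notch4 4.81-fold above it in neurons. Notch2 was read in opposite directions by its probes at 5 dpi (-0.85 and 1.03), so it has no direction here. Of the non-canonical ligands, 3 of 6 were higher and 2 lower at 5 dpi. Dner, a neuronal membrane protein proposed as a ligand, was 5.91-fold higher on the array labelled 7 dpi, after a log2 difference from MEF of -2.10 at 3 dpi and 1.61 at 5 dpi. Cntn1, an axonal contactin, was 5.32-fold higher on the array labelled 7 dpi, with -0.94 at 3 dpi. Dlk1, a Delta-like protein of mesenchymal precursors, was 5.60-fold lower at 3 dpi and 354-fold lower in neurons, yet within 2-fold of MEF on the array labelled 7 dpi (-0.14). Mfap2, a microfibril protein, had a like shape, 7.42-fold lower at 3 dpi and 35.3-fold lower in neurons.

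The Fringe enzymes, which add sugars to Notch and set which ligands it answers to, differed in direction. Lfng had levels of -2.24 in MEF, -4.56, -4.49, -5.56 and -5.60 along the Tet3 series, and -1.59 in neurons. It was lower than MEF on every Tet3 array, by 4.74-fold to 10.2-fold, and 1.58-fold higher in neurons (0.66 on the log2 scale, or -0.14 with median centring). Mfng was 3.46-fold higher on the array labelled 7 dpi by the probe used, and its other probe gave 2.02 on the log2 scale. The proteases that cut the receptor were near or below MEF: at 5 dpi 0 of 8 were higher and 1 lower, Psen2 of the gamma-secretase complex, at 2.64-fold. In neurons 4 of 8 were lower, led by Furin, which processes the receptor precursor, at 4.76-fold, and 1 was higher, Aph1b, with a log2 difference of 1.00. With median centring 3 of 8 were lower at 5 dpi and 6 of 8 in neurons, against 2654 of 17987 and 6845 of 18272 genes. In neurons 0 were higher with normexp, quantile normalization or median centring. Of all genes, 3847 of 18745, 3338 of 17792 and 2953 of 18272 were higher there, in that order.

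Dtx1, a Deltex ubiquitin ligase that binds Notch, had levels of -5.29 in MEF, -4.38, -6.23, -2.75 and -1.68 along the Tet3 series, and 0.61 in neurons. It was high on the late Tet3 arrays, at 5.85-fold and 12.2-fold of MEF, and 59.9-fold of MEF in neurons. Its log2 differences of 2.55, 3.61 and 5.90 were 1.69, 2.54 and 4.76 with normexp. Rbpj, the DNA-binding partner of cleaved Notch, was lower on every Tet3 array, by 2.14-fold to 2.96-fold, and 3.13-fold lower in neurons, although its other probe gave -0.40 at 5 dpi, within 2-fold. Maml3, a Mastermind co-activator, was 4.25-fold higher at 5 dpi. The co-repressors had 0 of 13 higher at 5 dpi and 1 lower, Ctbp1, at 2.01-fold, or 2 lower with median centring.

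Of the other targets, Heyl, a Hey-family repressor, had levels of -4.60 in MEF, -4.28, -3.21, -0.83 and -1.94 along the Tet3 series, and -3.13 in neurons. It peaked at 5 dpi, 13.6-fold above MEF (3.77 ± 0.22, or 2.86 with normexp), as did the helix-loop-helix inhibitors Id1 at 5.34-fold and Id3 at 3.09-fold. On the array labelled 7 dpi, Id1 and Id3 were back within 2-fold, at 1.60-fold and 1.03-fold (for Id3 0.04 on the log2 scale, or -0.40 with median centring). Hes2 and Hes7 were within 2-fold of MEF on each array by the scaling used, while median centring put Hes2 at -1.08 on the array labelled 7 dpi and -1.11 in neurons. Hes3 was not well above background on any array. Nrarp, a feedback inhibitor made on Notch activation, was well above background only at 5 dpi and in neurons.

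The proneural factors and their partners had 6 of 12 genes with a value higher at 5 dpi, 7 of 12 on the array labelled 7 dpi and 8 of 13 in neurons, and 0 lower in each. Of all genes 17.9%, 17.0% and 30.3% were higher there. Dim genes were called higher more often, and in this group Insm1, Myt1 and Neurod1 were not well above background in MEF. The higher count at 5 dpi fell to 3 with normexp, quantile normalization or median centring, and on the array labelled 7 dpi to 4 with each of them. The all-gene counts fell too, in that order to 1700 of 18360, 1640 of 17504 and 1765 of 17987 higher at 5 dpi. On the array labelled 7 dpi they were 1505 of 17469, 1427 of 17519 and 1552 of 17630. In neurons median centring gave 7 of 12 higher and 2 lower, against 2953 and 6845 of 18272 genes. Insm1, a zinc-finger factor of new neurons, was not well above background up to 3 dpi, then exceeded MEF by at least 66.2-fold at 5 dpi and by at least 191-fold where the label says 7 dpi. Those log2 bounds of 6.05 and 7.58 were 4.44 and 5.81 with normexp. Neurog2 was 2.55-fold and Neurog1 3.43-fold above MEF at 5 dpi, and the log2 value of Neurog2 was 0.93 with normexp, 0.71 with quantile normalization and 0.95 with median centring. Neurod6, of forebrain glutamate neurons, was 8.67-fold above MEF on the array labelled 7 dpi and 249-fold in neurons, log2 differences of 3.12 and 7.96 that were 1.79 and 6.16 with normexp.

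**Figure D4:**
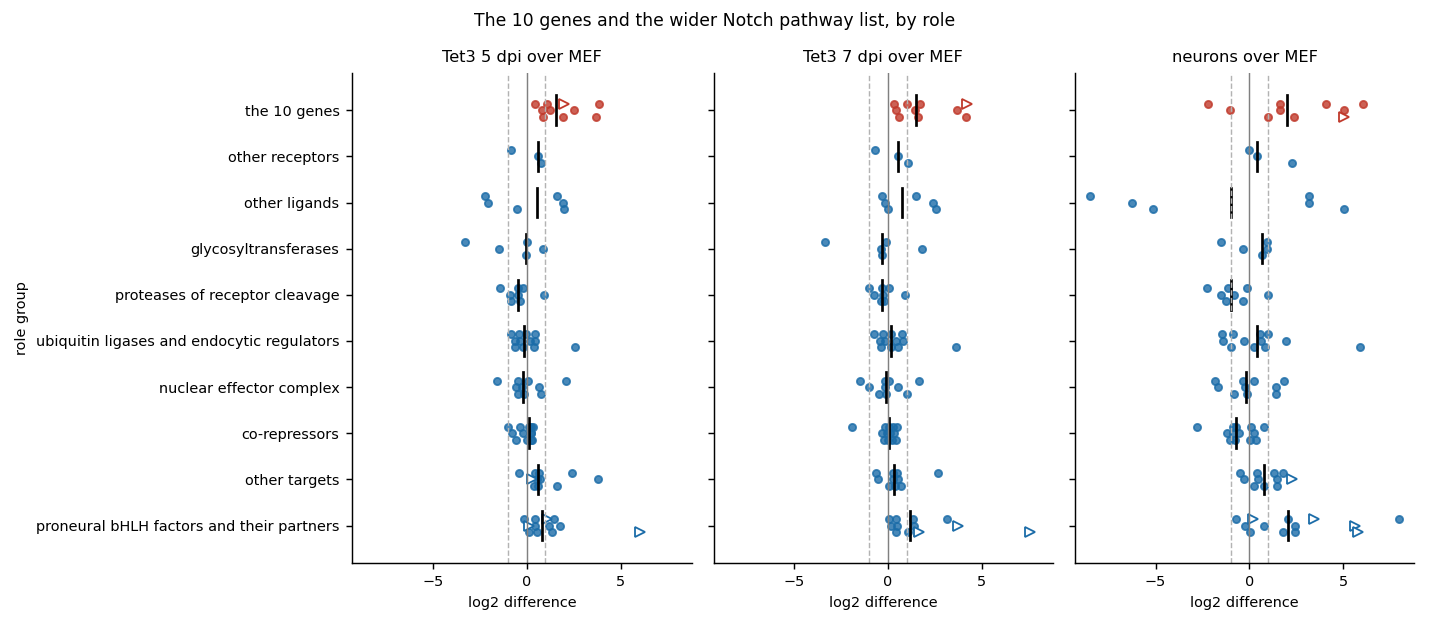
Log2 differences from MEF of the 10 genes (red) and of 83 further pathway genes by role (blue), in 3 panels for 5 dpi, for the array labelled 7 dpi and for neurons. Each point is 1 gene, triangles are lower bounds, black bars are medians and dashed lines mark 2-fold; the red medians (1.58, 1.51 and 2.02, with the brighter Notch1 probe) lie to the right of most role groups, and the proneural group has no gene past 2-fold on the lower side, where median centring would put 2 in neurons.

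For each of the 10 genes the most similar profiles were sought by Pearson r over the 6 arrays among 4004 genes well above background on all of them and with a range of at least 2 on the log2 scale. With 6 points that share their arrays, such values only describe likeness. Dll1 was nearest to Rbm24 (0.9956), Kcne1l (0.9939) and Doc2b (0.9905). Dll3 was nearest to H2bc6 (0.9901), Pnma3 (0.9830) and Gal3st2 (0.9822), and Hes6 to Pvalb (0.9857), Prph (0.9765) and again Gal3st2 (0.9752). Prph, the peripherin filament of peripheral neurons, shared the peak of Hes6 at 5 dpi, with levels of -5.68 in MEF, 2.14 at 5 dpi and -2.28 in neurons. Jag1 was nearest to Lima1 (0.9975), Hoxa11 (0.9969) and Cast (0.9969), all low in neurons. Hey1 was nearest to Atp6v1g2 (0.9975), Snph (0.9973) and Dennd6b (0.9970), and Hes5 to Fam166c (0.9990), Slc25a18 (0.9983) and Mdh1b (0.9981), all highest in neurons. Hes1 was nearest to Gnpnat1 (0.9968), Luc7l (0.9878) and Ero1a (0.9865). Dll4 was nearest to Hmgn5 (0.9887), Ptprt (0.9795) and Olfr1443 (0.9777). Jag2, which counts here with its dim values, was nearest to Rgs17 (0.9911), Tnni1 (0.9880) and Tenm4 (0.9873). The nearest to Notch1 by its brighter probe were the Sdad1, Cmya5 and Trpm1 probes given above.

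Markers of other cells differed from MEF on the late Tet3 arrays and, for several lists, already at 1 and 3 dpi. Of all genes, 5.37%, 16.3%, 17.9% and 17.0% were at least 2-fold higher than in MEF along the Tet3 series. In the same order, 6.03%, 9.83%, 8.28% and 6.84% were lower. Of the neuron markers, 2 of 9 with a value were at least 2-fold higher than in MEF at 1 dpi, 6 of 9 at 3 dpi, 7 of 10 at 5 dpi and 9 of 10 on the array labelled 7 dpi. At 1 and at 3 dpi 1 was lower, Elavl4, with levels of -0.44 in MEF, -1.85 at 1 dpi and -1.93 at 3 dpi. The summed level of the neuron markers was 4.06 in MEF, 8.46, 15.0, 10.3 and 19.7 along the Tet3 series, and 87.1 in neurons. All 9 macrophage markers were lower than in MEF on every other array, with sums of 311 in MEF, 56.2, 20.4, 4.01 and 2.59 on the Tet3 arrays in order of label, and 3.36 in neurons. Skeletal muscle markers, a tissue where Hey1 and Notch1 also act, were higher for 4, 6, 5 and 7 of 8 genes with a value along the Tet3 series, with sums of 0.432 in MEF, then 1.72, 1.62, 5.03 and 11.4. Of the 10 cell cycle markers, 10 were higher at 3 dpi, 9 at 5 dpi and 8 on the array labelled 7 dpi. Smooth muscle and mural markers were higher for 6, 7, 6 and 1 of 7 along the Tet3 series, with sums of 110, 133, 131 and 40.7 against 47.9 in MEF. The part of these cells in the differences of the 10 genes was not tested.

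**Figure D5:**
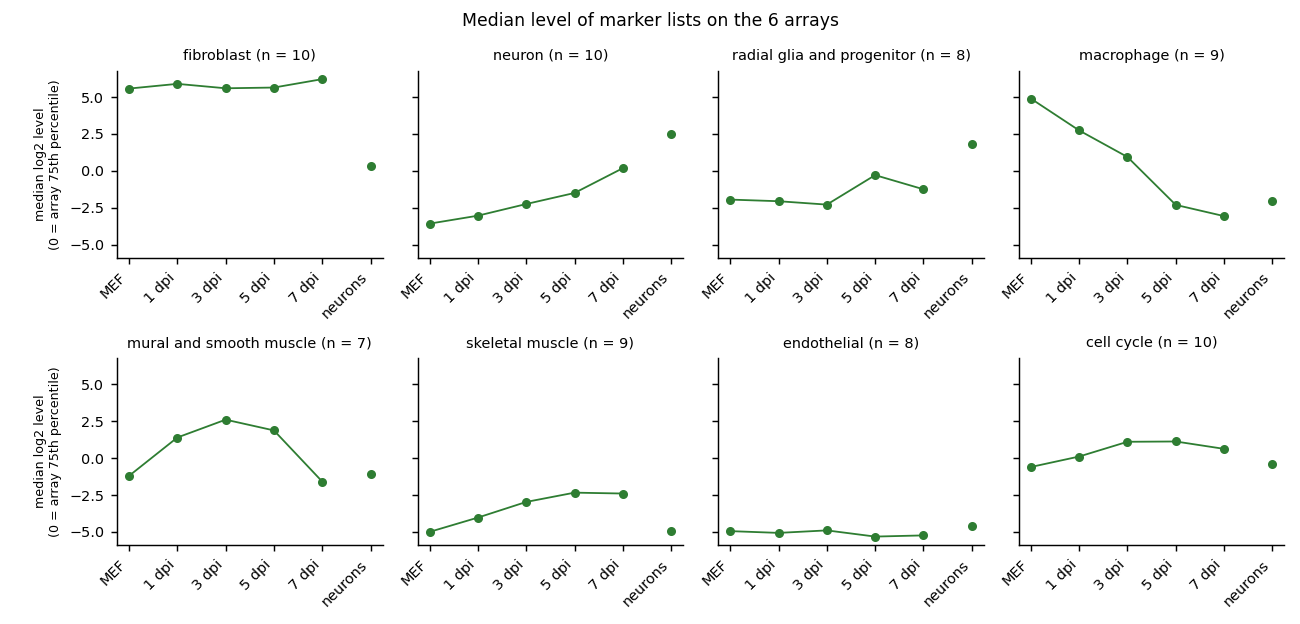
Median log2 level (0 is the array's 75th percentile) of 8 marker lists on the 6 arrays, 1 point per array, with n the number of markers on the array. Neuron markers climb with the label, macrophage markers drop from 4.90 in MEF to -3.07 on the array labelled 7 dpi, and the fibroblast median is low only in neurons. At 3 dpi 3 of the 10 fibroblast markers were at least 2-fold lower than in MEF and 1 higher.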

How the data were processed

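RNA of 6 samples was hybridised to 1 Agilent Cy3 mouse array each. Per the submitters' processing notes the scans were read by Agilent Feature Extraction 11.0.1.1; the deposited processed intensity is background-corrected, per the file headers, the neuron file gives it to 3 significant digits. The deposited series table holds the authors' log2 values. Column medians, from MEF to neurons, were -3.303, -3.234, -3.003, -2.899, -2.864 and -2.503; it matched the levels computed here at r of 0.99998 or more, and within 0.0053 for the 12 probes, so its scale is log2 with the 75th percentile at 0 and no centring per gene.

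Here, log2 of the processed intensity was averaged over spots without outlier flags and the array's 75th percentile subtracted (Python 3.11.15, pandas 2.3.3, numpy 2.4.6), leaving 39409 of 39429 probes. RefSeq accessions named 27222 (69.1%). A gene took its probe with the highest mean level. A difference needs a signal well above background on each array of the pair; with 1 such array it is a bound (against the higher of the dim probe's own level and the lowest well-above-background signal of that array), and with neither there is no value. With 1 array per group no test was run, a call means 2-fold, and the number of arrays limits the precision. Array errors come from the scanner's error model.

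The 10 genes, the lists and the alternatives were chosen with earlier results of these data known. Alternatives were normexp (limma 3.58.1 in R 4.3.3, offset 50, on median signals), quantile normalization, median centring, 2 other filters, the mean over probes, the authors' table and a 4-fold threshold; other probes of Dll3 and Notch1 were added after seeing the data. Named from the pathway list were up to 4 genes per role with the largest difference on the Tet3 arrays and up to 4 in neurons; not all are printed, and further list members are named where a count or role needs them, chosen after their values were seen. The calling was tested on simulated data.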

Additional observations from a re-analysis of the deposited data

How the results depend on the processing

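The direction of no called difference of the 10 genes reversed under the alternatives run, and the authors' table gave the same counts of the 10 genes as the signals did. Of the total counts past 2-fold, those that moved by more than 1.5 times are given here. At 1 dpi the count of the 10 genes 2-fold from MEF was 0, and 1 without the filter, with the mean over probes, or with the other probes of Dll3 and Notch1. At 3 dpi it was 1, and 0 with normexp, quantile normalization, median centring or a 4-fold threshold, and 2 without the filter or with the other probes. At 4-fold, 4 of the 10 genes were still called at 5 dpi and 3 on the array labelled 7 dpi, all higher. Of all genes, 731 were then higher and 599 lower of 18329 at 5 dpi, and 730 and 536 of 17506 on the array labelled 7 dpi. Also at 4-fold, the pathway list had 1, 5, 8 and 8 calls along the Tet3 series, 18 in neurons and 11 between the array labelled 7 dpi and neurons, where 2-fold gave 4, 17, 21, 21, 39 and 34. All genes had 178 higher and 223 lower of 16813 at 1 dpi, and 519 and 719 of 18116 at 3 dpi. They had 2525 and 1271 of 18763 in neurons, and 953 and 1640 of 18512 in the last pair. The stricter threshold itself accounts for the smaller counts at 4-fold. For the other moved counts the cause was not tested. Within the 2-fold totals median centring moved the pathway genes that were lower from 11 to 21 at 3 dpi, from 7 to 14 at 5 dpi, from 5 to 9 on the array labelled 7 dpi and from 15 to 33 in neurons. Over all genes it moved the lower ones from 1780 to 2597, from 1517 to 2654, from 1197 to 2151 and from 3014 to 6845. For the array labelled 7 dpi over neurons it moved 16 higher and 18 lower pathway genes to 25 and 12. Over all genes it moved 2577 higher and 3633 lower to 4074 and 2678. Signal over background limits Jag2, which has only bounds against MEF, and Dll4. No paired analysis was possible because each group has 1 array. No spread between cultures could be measured. The share of called genes that were higher was 60.5% for 3 dpi over 1 dpi, against 37.4% with normexp, 35.2% with quantile normalization and 36.3% with median centring. For the array labelled 7 dpi over neurons it was 41.5%, against 60.3% with median centring.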
